A study of Homo sapiens with 6 samples.

Results

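Tissue factor and the plasminogen activators form 2 branches of pericellular proteolysis, and 9 genes of these branches were followed across RNA-seq libraries of dormancy-competent lung adenocarcinoma cells. The 9 genes were F3, TFPI, TFPI2, PLAU, PLAUR, PLAT, SERPINE2, SERPINA5 and THBD, and each was 1 row of the 21293 genes in the normalized count table. They were chosen from measured values of these same libraries, so their differences between groups are given as a description.

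Tissue factor, encoded by F3, is the membrane receptor that starts coagulation by binding factor VII, and TFPI shuts the resulting complex down. The urokinase and tissue-type activators (PLAU and PLAT) cut plasminogen into plasmin, a protease that dissolves fibrin and degrades extracellular matrix, and PLAUR holds urokinase at the cell surface. Serpins and Kunitz-type inhibitors restrain these enzymes, and TGFβ is widely known as an inducer of such inhibitors in epithelial and mesenchymal cells.

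The cells were H2087-LCC, a population of human lung adenocarcinoma cells kept for its ability to form dormant metastases, and all libraries came from this 1 line grown in culture. The SB group received SB505124, which blocks the TGFβ type I receptor, for 3 days, and the other groups received TGFβ for 3 days or TGFβ for 7 days. Each group had 2 libraries of polyA RNA, which the study treated as technical replicates. SDs, standard errors, intervals, p-values and calls thus rest only on the spread between those libraries. Variation between independent experiments was not measured. There was no SB library at 7 days, so the 7-day comparison with SB also holds the difference in culture time. The comparison between 3 and 7 days of TGFβ holds that difference too. Both comparisons with SB share the same SB libraries.

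The normalized counts of a library summed to between 34306283 and 36340734, and the clear steps among low values in 4 libraries placed those at an estimated 3.2e+07 to 4.0e+07 assigned reads. All 7 genes of a list of TGFβ-responsive genes were higher in both TGFβ groups than in SB. The 6 epithelial markers (keratins, EPCAM and CDH1) summed to between 88277 and 112407 normalized counts in every library, mostly KRT8 and KRT18, with 3 of the 6 called lower and 1 higher than SB at both times. CDH1 had normalized counts of 371 and 635 in SB, 28 and 24 at 3 days, and 10 and 9 at 7 days, and EPCAM had 10180 and 9106, 6610 and 5994, and 2988 and 3277. By contrast, 9 leukocyte and platelet markers summed to 15 to 37 and 6 hepatocyte markers to 15 to 28. The 10 endothelial markers summed to 266 to 407 normalized counts in SB, 492 to 509 at 3 days and 488 to 533 at 7 days, with the defining markers CDH5 and VWF at no more than 20 and 13. Of that list 6 genes passed the filter on low values, with 5 called higher and 1 lower at 3 days. At 7 days 4 were called higher and 1 lower. TIE1, TEK, ROBO4 and ESAM were called higher at both times and KDR lower at both. KDR had normalized counts of 98 and 225 in SB, 26 and 31 at 3 days, and 70 and 53 at 7 days. CDH5, below the filter, had 14 and 20, 1 and 5, and 2 and 0. Endothelial cells also express THBD and PROCR, and the part of these markers in the results was not tested.

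The sequence before the start site is shown for F3, TFPI2, PLAUR and SERPINA5, since F3 and SERPINA5 had the largest differences between 3 and 7 days among the 9 and F3, TFPI2 and PLAUR held the AP-1 motif. Each sequence is the 250 bases before the RefSeq start (GRCh38.p14 table), found by exact match at 1 place in GRCh37 and written 5′ to 3′ on the strand of the gene. Capitals mark the SMAD-binding element CAGAC and the AP-1 motif TGANTCA on either strand. The regions are chr1:95007316-95007565 (minus strand) for F3, chr7:93520066-93520315 (minus strand) for TFPI2, chr19:44174322-44174571 (minus strand) for PLAUR and chr14:95047513-95047762 (plus strand) for SERPINA5. Those of PLAUR and SERPINA5 lie inside the annotated gene spans (44150247 to 44174699 and 95027779 to 95059455). These spans begin further upstream than the RefSeq start used.
F3: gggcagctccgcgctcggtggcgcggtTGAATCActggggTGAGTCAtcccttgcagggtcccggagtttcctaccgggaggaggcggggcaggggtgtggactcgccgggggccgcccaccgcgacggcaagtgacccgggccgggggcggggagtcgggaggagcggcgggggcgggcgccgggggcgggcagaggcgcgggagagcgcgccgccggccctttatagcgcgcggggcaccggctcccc
TFPI2: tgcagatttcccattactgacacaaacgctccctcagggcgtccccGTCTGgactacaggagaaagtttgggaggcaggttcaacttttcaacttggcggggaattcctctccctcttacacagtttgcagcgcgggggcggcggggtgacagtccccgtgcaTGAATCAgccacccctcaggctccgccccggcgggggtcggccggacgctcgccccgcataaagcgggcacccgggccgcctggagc
PLAUR: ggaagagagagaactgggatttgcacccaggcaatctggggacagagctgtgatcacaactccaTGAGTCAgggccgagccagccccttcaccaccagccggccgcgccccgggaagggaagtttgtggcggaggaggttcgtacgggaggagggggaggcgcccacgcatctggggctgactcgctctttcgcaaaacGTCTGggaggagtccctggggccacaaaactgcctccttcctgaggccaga
SERPINA5: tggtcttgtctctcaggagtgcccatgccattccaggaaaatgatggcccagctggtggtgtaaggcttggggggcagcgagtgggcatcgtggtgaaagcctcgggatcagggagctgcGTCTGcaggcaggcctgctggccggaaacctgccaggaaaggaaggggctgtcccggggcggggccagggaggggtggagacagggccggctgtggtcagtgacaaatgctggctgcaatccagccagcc

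Windows were read for 7 of the 9 genes, with 9 windows. THBD had no entry among the start sites, and PLAT was not read because the search among the 9 genes left out chromosome 8. The shares over all genes were taken without leaving out a chromosome. AP-1 motifs were found in the windows of F3, TFPI2 and PLAUR, 3 of the 9 windows, and 6.57% of the 35116 windows of all genes held one. In F3 they began 223 and 210 bases before the start, in PLAUR 186 bases before it and in TFPI2 87 bases before it. The search left the middle base open, and the matches read TGAATCA and TGAGTCA in F3, TGAGTCA in PLAUR and TGAATCA in TFPI2. The SMAD-binding element was found for PLAU, PLAUR, SERPINA5 and TFPI2, in 4 of the 9 windows, a share close to the 38.0% of all windows. The GC box of SP1, GGGCGG, was found in 6 of the 9 windows, from 5 genes, and in 42.6% of all windows. F3 alone of the 7 held TATAAA, which 10.7% of all windows held, and a window of PLAU alone held the E2 box CACCTG, which 17.5% of all windows held. None of the 9 windows held the KLF motif GGGGTGGG or the NF-kB motif, present in 9.51% and 5.07% of all windows. A match describes these letters and does not show that a factor was bound.

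Across the 9 genes, 3 days of TGFβ went with more F3, PLAU, PLAUR, TFPI2, SERPINE2 and SERPINA5 RNA and with less PLAT and THBD RNA. In the fit of all genes (limma, Benjamini-Hochberg adjusted p under 0.05), 6 of the 9 were called higher and 2 lower than SB, while TFPI was not called. Of the 14395 genes tested, 29.0% were called, 14.9% higher and 14.0% lower. At 7 days 5 of the 9 were called higher and 3 lower than SB, beside 54.5% of all genes, 27.7% higher and 26.9% lower. Between 3 and 7 days, 4 were called higher (PLAU, PLAT, SERPINE2 and SERPINA5) and 1 lower (F3), beside 33.2% of all genes, 17.0% higher and 16.2% lower. The median log2 difference of the 9 genes was 1.12 at 3 days, 1.12 at 7 days and 0.20 between the times, and that of all genes tested was -0.02, -0.00081 and 0.02. Since the genes were chosen with these values known, nothing is read from the counts.

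**Figure D1:**
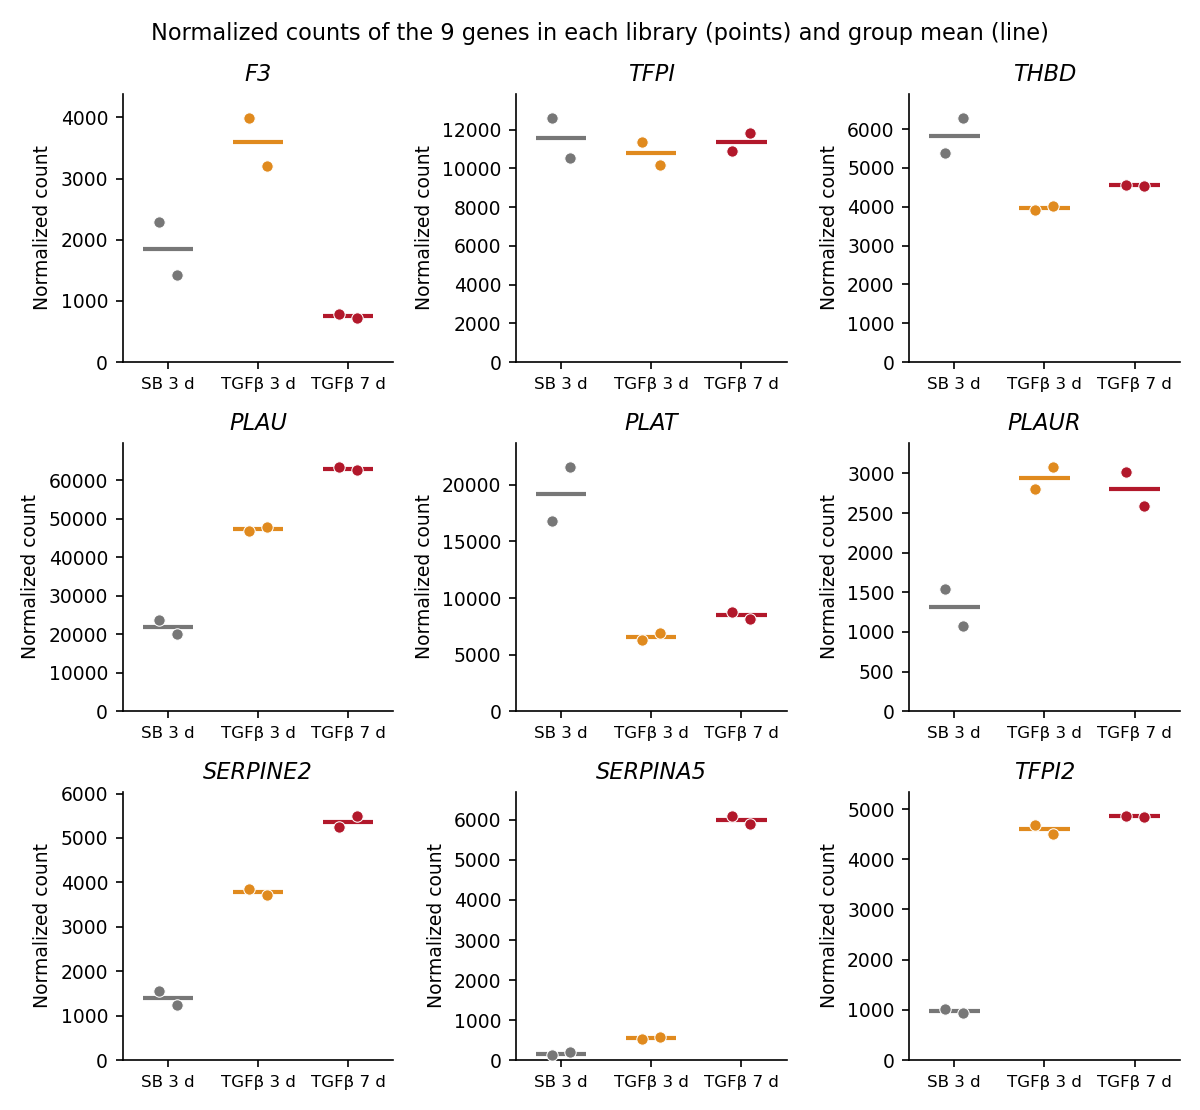
Normalized counts (y axis, starting at 0) of the 9 genes in each of the 6 libraries, grouped on the x axis as SB 3 days, TGFβ 3 days and TGFβ 7 days, with a point per library and a line at the group mean. F3 is highest at 3 days and lowest at 7 days, SERPINA5 stays at or under 566 until its 7-day values of 6098 and 5906, and TFPI shows overlapping points in all groups.

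F3 went in opposite directions at the 2 times. This gene, on chromosome 1 from 94994729 to 95007315 in GRCh37 (minus strand, 6 exons), had normalized counts of 2289 and 1420 in SB, 3992 and 3210 after 3 days of TGFβ, and 782 and 720 after 7 days. No 2 groups overlapped, and the 7-day libraries held the lowest values of all 6. Of all 14395 genes tested, 63.2% did not overlap between 3 days and SB, 77.5% between 7 days and SB and 69.1% between the times. Groups without overlap were thus the usual case, here and for each gene that follows. Compared with SB, the log2 difference was 0.99 (SE 0.18) at 3 days and -1.26 (SE 0.18) at 7 days, a ratio of group means of 1.94 and 0.405. From 3 to 7 days it dropped by 2.25 on the log2 scale (SE 0.18), 4.79-fold by group means, which ranked 30 from the bottom among the 14395 genes tested. Each library holds RNA of many cells, so fewer cells with F3 RNA and less F3 RNA per cell cannot be told apart, here and for each gene that follows.

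The SB libraries differed more for F3 than the TGFβ libraries did. F3 was 1.61 times higher in SB replicate 1 than in SB replicate 2, against 1.24 times between the 3-day libraries and 1.09 times between the 7-day libraries. The difference at 3 days was 0.64 without SB replicate 2 and 1.33 without SB replicate 1, and at 7 days it was -1.61 and -0.92. The same SB replicate held more TFPI, TFPI2, PLAU, PLAUR and SERPINE2 RNA, whereas SB replicate 2 held more PLAT, SERPINA5 and THBD RNA. The part of this difference between SB libraries in the values was not tested.

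TFPI, the circulating and cell-bound Kunitz inhibitor that blocks tissue factor with factor VII, lies on chromosome 2 from 188328957 to 188430487 (minus strand). Its normalized counts were 12600 and 10522 in SB, 11377 and 10173 at 3 days, and 10882 and 11825 at 7 days. All 3 groups overlapped. The log2 difference from SB was -0.10 at 3 days, with a 95% interval of -0.32 to 0.12, and -0.02 at 7 days, with an interval of -0.24 to 0.20, so larger changes than these bounds lie outside the intervals of this fit. On the scale of counts per kilobase of transcript, F3 stood at 0.305 and 0.227 of TFPI in the SB libraries, at 0.589 and 0.530 after 3 days and at 0.121 and 0.102 after 7 days. The ratio of initiator to inhibitor thus followed F3 and did not overlap between groups.

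THBD encodes thrombomodulin, the thrombin receptor that turns thrombin from clotting towards protein C activation, and it is a gene of 1 exon on chromosome 20 from 23026270 to 23030309. Normalized counts were 5378 and 6289 in SB, 3912 and 4028 at 3 days, and 4570 and 4538 at 7 days. Both TGFβ groups lay below SB, and the 3-day values were the lowest. The log2 difference from SB was -0.55 (SE 0.09) at 3 days and -0.35 (SE 0.09) at 7 days. Between the times the difference was 0.20, with a 95% interval of -0.0029 to 0.40, and was not called.

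PLAU and PLAT, the 2 plasminogen activators, moved apart. PLAU, on chromosome 10 from 75668935 to 75677254, had normalized counts of 23751 and 19992 in SB, 46750 and 47935 at 3 days, and 63475 and 62583 at 7 days. PLAT, on chromosome 8, had 16815 and 21583 in SB, 6257 and 6882 at 3 days, and 8763 and 8166 at 7 days. In neither gene did any groups overlap: PLAU rose at each step, whereas PLAT was lowest at 3 days and somewhat higher at 7 days, still below both SB libraries. The log2 differences of PLAU were 1.12 (SE 0.09) at 3 days and 1.53 (SE 0.09) at 7 days against SB, and 0.41 (SE 0.09) between the times. Those of PLAT were -1.54 (SE 0.11), -1.17 (SE 0.11) and 0.37 (SE 0.11). The calls between 3 and 7 days were lost for both genes in a fit without the trend on mean expression, and for PLAT also without a filter on low values, without 3-day replicate 1 (0.30) and without either 7-day replicate (0.32 and 0.42). For PLAU the call was also lost without 7-day replicate 1 (0.40).

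Per kilobase of transcript, PLAU exceeded PLAT by 1.85 and 1.21 times in the SB libraries, by 9.76 and 9.10 times at 3 days and by 9.47 and 10.02 times at 7 days. The 3-day and 7-day ratios overlapped each other and lay far above those in SB. On the opposite strand PLAU overlaps C10orf55, which held 139 to 222 normalized counts per library, and reads of overlapping genes cannot be told apart where a kit does not mark strand.

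PLAUR, the urokinase receptor, lies on chromosome 19 from 44150247 to 44174699 (minus strand). It had normalized counts of 1540 and 1078 in SB, 2802 and 3082 at 3 days, and 3012 and 2588 at 7 days. Both TGFβ groups lay above SB and overlapped each other. The log2 difference from SB was 1.19 (SE 0.15) at 3 days and 1.12 (SE 0.15) at 7 days, and that between the times was -0.07, with an interval of -0.40 to 0.25. Enzyme and receptor were thus both higher, and PLAU per kilobase stayed 9.005 to 14.1 times above PLAUR in all libraries.

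Among the inhibitors, TFPI2 reached its level by 3 days. TFPI2, a Kunitz-type inhibitor of plasmin and trypsin found in the matrix, lies on chromosome 7 from 93514708 to 93520065 (minus strand). Its normalized counts were 1017 and 933 in SB, 4686 and 4503 at 3 days, and 4863 and 4845 at 7 days. The TGFβ libraries were all well above SB, and the times lay close without overlapping. The log2 difference from SB was 2.24 (SE 0.09) at 3 days and 2.32 (SE 0.09) at 7 days, whereas that between the times was 0.08, with an interval of -0.11 to 0.27, and was not called.

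SERPINE2, protease nexin-1, is a serpin that inhibits thrombin, urokinase and plasmin, and its gene lies on chromosome 2 from 224839762 to 224904035 (minus strand). Normalized counts were 1553 and 1233 in SB, 3859 and 3718 at 3 days, and 5239 and 5496 at 7 days. No groups overlapped, and the level rose at each step. The log2 difference from SB was 1.45 (SE 0.11) at 3 days and 1.95 (SE 0.11) at 7 days, and that between the times was 0.50 (SE 0.11). The last call was lost in the fit without the trend and without 7-day replicate 2 (0.47).

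SERPINA5, the protein C inhibitor that also inhibits urokinase, showed the widest range of the 9 genes and most of it came after 3 days. Normalized counts were 124 and 205 in SB, 534 and 566 at 3 days, and 6098 and 5906 at 7 days. No groups overlapped, and the 7-day libraries stood apart from the other 4. The log2 difference from SB was 1.78 (SE 0.18) at 3 days and 5.23 (SE 0.18) at 7 days, a ratio of group means of 3.34 and 36.5. Between the times it was 3.45 (SE 0.18), a ratio of means of 10.9, and it ranked 8 among the 14395 genes by its rise. Leaving out 1 library at a time gave 3.40 to 3.49 for that difference.

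**Figure D2:**
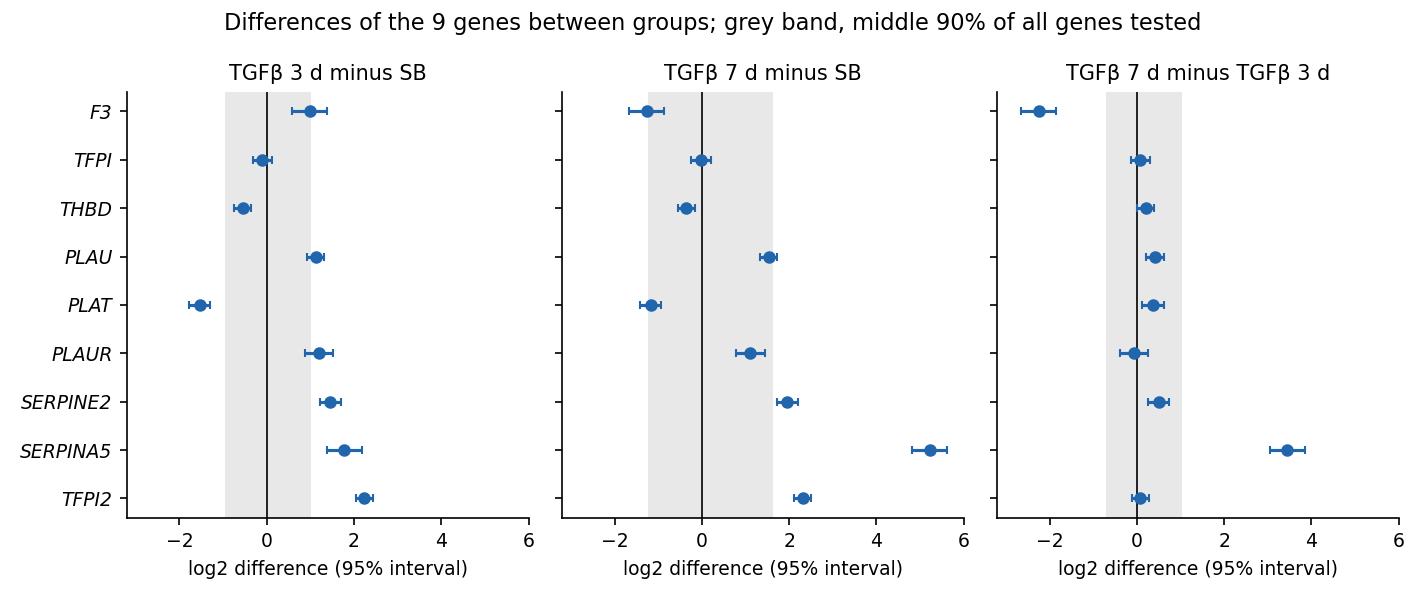
Differences in log2(normalized count + 1) of the 9 genes (points, with 95% intervals from the limma fit as bars) for TGFβ 3 days minus SB, TGFβ 7 days minus SB and TGFβ 7 days minus TGFβ 3 days; the grey band holds the middle 90% of all 14395 genes tested. F3 and SERPINA5 lie outside the band in the last panel (-2.25 and 3.45), where the other genes lie within it.

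SERPINA5 lies in a cluster of serpin genes on chromosome 14 (95027779 to 95059455, plus strand), and 7 genes of the cluster within 500 kb were in the table. SERPINA1, which encodes the antitrypsin of plasma, had normalized counts of 4138 and 4260 in SB, 5496 and 5383 at 3 days, and 11332 and 11308 at 7 days. SERPINA3, which encodes antichymotrypsin, had 9 and 26 in SB, 8 and 9 at 3 days, and 185 and 196 at 7 days. Both rose between 3 and 7 days, by 1.06 on the log2 scale for SERPINA1 (limma, adjusted p = 6.8e-06) and by 4.33 for SERPINA3 (adjusted p = 3.2e-05). The other 4 genes, SERPINA10, SERPINA6, SERPINA2 and SERPINA4, held at most 3 normalized counts in any library. In the annotation SERPINA4 overlaps SERPINA5 on the same strand. A further protein-coding entry on that strand (95058395 to 95090983), not in the table, overlaps the end of SERPINA5 and spans SERPINA3 (95078721 to 95090392). The part of this overlap in the SERPINA3 values was not tested.

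The genes next to each of the 9 genes on the chromosome were examined with the data in view. Of these 18 neighbours, 13 passed the filter on low values, and 5 were called at 3 days, 8 at 7 days and 3 between the times, shares near the 29.0%, 54.5% and 33.2% of all genes. Beside TFPI2, GNG11 (31.0 kb away) had normalized counts of 674 and 540 in SB, 1910 and 1904 at 3 days, and 1999 and 2056 at 7 days. Like TFPI2 it rose by 3 days (log2 difference 1.66, limma, adjusted p = 7.5e-07), and the difference between the times was 0.09 (adjusted p = 0.59). Next to PLAT, the 3-day level of IKBKB fell by 0.88 (log2) (adjusted p = 9.0e-05), and next to F3 neither ABCD3 nor SLC44A3 was called in any of the 3 comparisons.

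Per kilobase of the annotated transcript, PLAU was the most abundant of the 9 genes in each group, with 9335 ± 1134 normalized counts per kilobase in SB, 20206 ± 358 at 3 days and 26901 ± 269 at 7 days (SD, n = 2). In SB it was followed by PLAT (6270 ± 1101), TFPI (2996 ± 381), THBD (1444 ± 159), PLAUR (957 ± 239), F3 (807 ± 267), SERPINE2 (626 ± 102), TFPI2 (442 ± 27) and SERPINA5 (72.2 ± 25.1). The libraries of PLAUR and F3 overlapped in that order, as did those of F3 and SERPINE2. At 3 days PLAUR, PLAT and TFPI2 overlapped, as did SERPINE2 and F3, and SERPINA5 was still the lowest (241 ± 9.93). At 7 days SERPINA5 had moved from rank 9 to rank 4 (2635 ± 59.6) and F3 to rank 9 (327 ± 19.1). TFPI and PLAT, PLAT and SERPINA5, and TFPI2 and PLAUR overlapped at 7 days. SERPINA5 stood at 0.0780 and 0.162 of SERPINE2 in SB, at 0.135 and 0.149 at 3 days, and at 1.14 and 1.05 at 7 days.

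**Figure D3:**
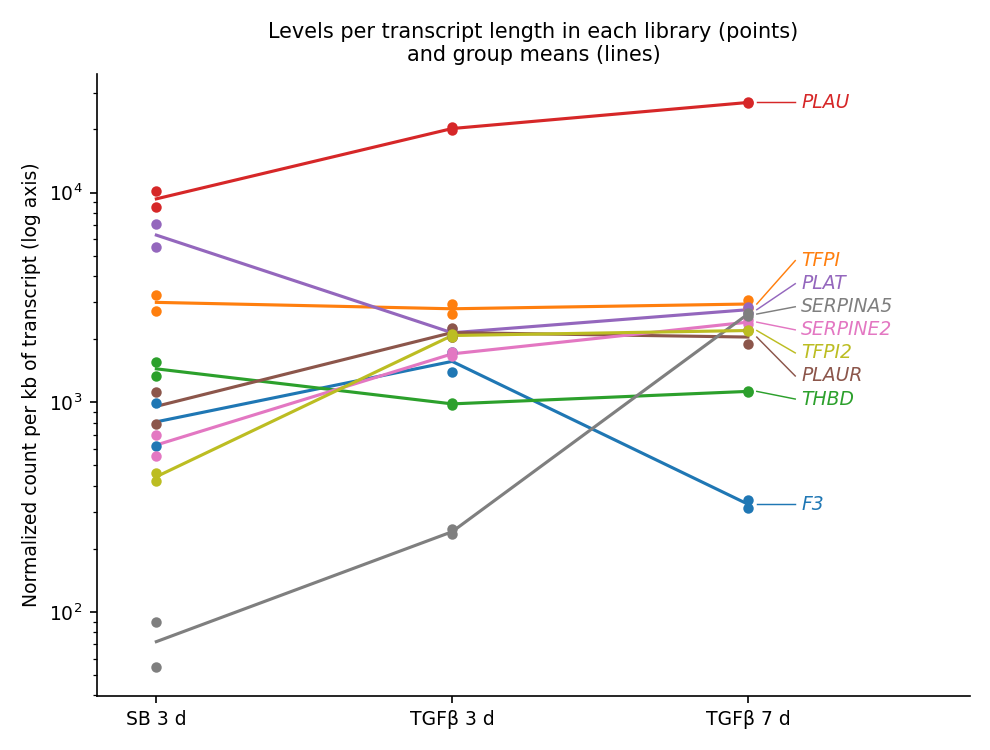
Normalized count per kilobase of transcript (log axis) in each library (points) and the group means (lines) for SB 3 days, TGFβ 3 days and TGFβ 7 days. PLAU stays the highest of the 9 genes, SERPINA5 climbs from the lowest place to rank 4, and F3 drops to the lowest.

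The time courses were compared by the Euclidean distance between log2 profiles over the 6 libraries, each centred on its SB mean, where a smaller distance means a more similar course. Of all pairs among the 9 genes, PLAU and PLAUR were the closest (0.65), before PLAU and SERPINE2 (0.77) and TFPI and THBD (0.88), and PLAT and SERPINA5 were the farthest apart (10.2). Among 11380 other genes with a mean of at least 100, those most like SERPINA5 were the long non-coding RNA MIAT (0.52), the secreted serine protease gene HTRA1 (0.59) and CST1, a secreted cystatin (1.23). HTRA1 had normalized counts of 121 and 249 in SB, 727 and 769 at 3 days, and 5449 and 5864 at 7 days. As in SERPINA5, the 7-day libraries of HTRA1 stood apart from the other 4.

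The genes most like F3 were CTGF, a matricellular protein gene (0.40), DLC1 (0.91), and TNS4, which encodes a tensin (1.04). CTGF had normalized counts of 3032 and 1724 in SB, 4608 and 3657 at 3 days, and 881 and 751 at 7 days, and like F3 it was higher in SB replicate 1 than in replicate 2. Those most like TFPI2 were CCDC69 (0.14), the kinase gene STK38L (0.29) and KDELC1 (0.39). CCDC69 had 250 and 239 in SB, 1141 and 1235 at 3 days, and 1215 and 1200 at 7 days, all TGFβ libraries well above SB. These distances are over the same libraries that chose the 9 genes and are a description.

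Other genes of plasminogen activation were taken from a list of 25, of which 16 passed the filter. Against SB, 3 were called higher and 4 lower at 3 days, and 7 higher and 3 lower at 7 days, with medians of -0.02 and 0.25, beside 29.0% and 54.5% of all genes called. PLG, the plasminogen gene, held 0 or 1 normalized count in each library.

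LRP1, the endocytic receptor that takes up activator-inhibitor complexes, had normalized counts of 850 and 1511 in SB, 2662 and 4088 at 3 days, and 10319 and 8357 at 7 days. It rose by 1.54 at 3 days (SE 0.24, limma, adjusted p = 4.6e-04) and by a further 1.49 from 3 to 7 days (adjusted p = 9.1e-04). MRC2, a collagen receptor that associates with PLAUR, rose by 0.94 (adjusted p = 0.021) and by a further 1.36 (adjusted p = 0.0031), and its 3-day call was lost without SB replicate 1 (0.41) and without 3-day replicate 2 (0.69). Without a filter on low values or without the trend MRC2 was called neither at 3 days (adjusted p = 0.17 and 0.14) nor between the times (0.070 and 0.056). VLDLR, a related endocytic receptor, fell by 0.51 at 3 days (adjusted p = 0.026) and rose by 0.51 at 7 days (adjusted p = 0.014). Its 3-day call was lost without a filter, with only the 4 libraries compared, without SB replicate 2 and without 3-day replicate 2 (adjusted p = 0.052 to 0.18), and its 7-day call without SB replicate 1 and without 7-day replicate 2 (0.061 and 0.11). ST14, the membrane protease matriptase, rose by 0.92 at 7 days (adjusted p = 0.0028), whereas PLGRKT, a plasminogen receptor, fell by 0.53 (adjusted p = 0.0036).

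Of a coagulation list of 26 genes, 24 were in the table and 13 passed the filter, and 4 were called higher and 1 lower at 3 days against 6 higher and 1 lower at 7 days (medians 0.03 and 0.22). These shares lie near the 29.0% and 54.5% of all genes. F7 and F10, the enzymes that work with tissue factor, held at most 1 and 4 normalized counts in any library, and F2, the prothrombin gene, at most 8. ANO6, the scramblase that exposes phosphatidylserine for clotting complexes, had normalized counts of 4455 and 4472 in SB, 11945 and 10826 at 3 days, and 16031 and 16941 at 7 days. ANO6 rose by 1.35 at 3 days (SE 0.08, limma, adjusted p = 2.6e-07) and by 1.88 at 7 days (adjusted p = 6.6e-09). MCFD2, part of the cargo receptor for factors V and VIII, rose by 0.67 and 0.84 (adjusted p = 5.9e-05 and 4.4e-06), and F8 rose by 0.80 at 7 days (adjusted p = 9.4e-04).

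PROCR, the protein C receptor, rose by 0.54 at 3 days (limma, adjusted p = 0.0020) and fell by 0.43 from 3 to 7 days (adjusted p = 0.0079). ANXA5, which binds phosphatidylserine, likewise rose by 0.42 (adjusted p = 0.012) and then fell by 0.42 (adjusted p = 0.011). The ANXA5 call at 3 days was lost without SB replicate 2 (0.25), without 3-day replicate 1 (0.34), without a filter and without the trend. Between the times it was lost in the last 3 of these fits and without either 7-day replicate (adjusted p = 0.061 to 0.084). The PROCR call between the times was lost without 3-day replicate 2 or 7-day replicate 1 (0.063 and 0.079). PROS1, protein S, rose by 0.47 at 7 days (adjusted p = 9.75e-04).

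All 4 protease-activated receptors, through which thrombin and the tissue factor complex signal, passed the filter. Of these, 3 were called higher at 3 days and 2 at 7 days, beside 29.0% and 54.5% of all genes called. F2R, the thrombin receptor, had normalized counts of 345 and 305 in SB, 845 and 739 at 3 days, and 1146 and 1107 at 7 days, and rose by 1.28 (SE 0.12, limma, adjusted p = 1.0e-05) and 1.79 (adjusted p = 2.6e-07). F2RL1 rose by 0.42 at 3 days (adjusted p = 0.0069), a call lost without the trend and without 3-day replicate 1 (0.060 and 0.079), and at 7 days the difference from SB was 0.23 (adjusted p = 0.067). F2RL2, named after its values were seen to complete the count, held 5 and 0 normalized counts in SB, 15 and 17 at 3 days, and 35 and 23 at 7 days.

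**Figure D4:**
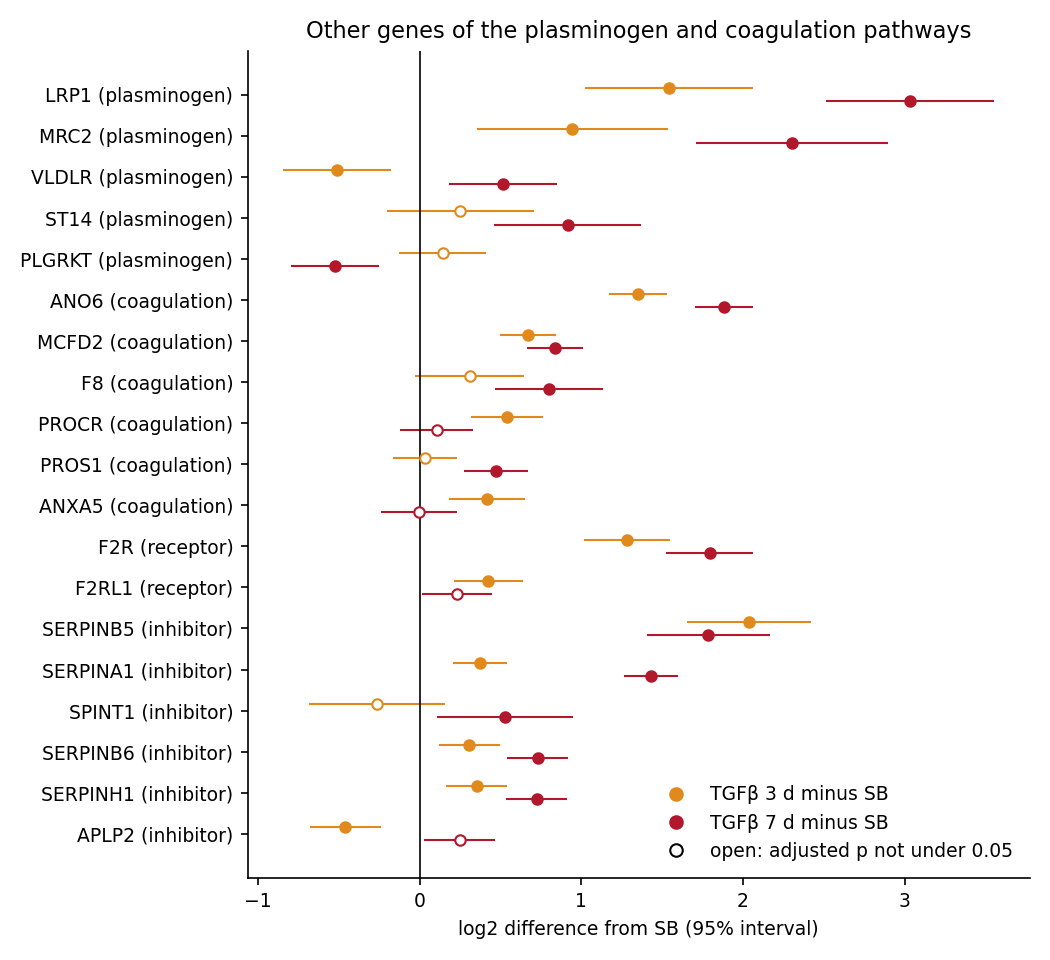
Differences from SB in log2(normalized count + 1) for 19 other genes of the pathways at 3 and 7 days of TGFβ (points, with 95% intervals from the limma fit as bars); filled points passed an adjusted p of 0.05. LRP1 shows the largest difference of these genes (3.03 at 7 days), and VLDLR lies below 0 at 3 days and above 0 at 7 days.

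Of 18 further serpins and Kunitz-type inhibitors, 12 passed the filter, with 5 called higher and 3 lower at 3 days, and 7 higher and 0 lower at 7 days (limma, with 0 lower also at an unadjusted p under 0.05). The medians were -0.19 and 0.63. Of all genes, 29.0% were called at 3 days and 54.5% at 7 days (27.7% higher and 26.9% lower at 7 days). SERPINB5, maspin, had normalized counts of 1146 and 693 in SB, 3811 and 3512 at 3 days, and 3050 and 3101 at 7 days, and rose by 2.04 (limma, adjusted p = 4.3e-06) and 1.79 (adjusted p = 5.8e-06). SERPINH1, a collagen chaperone that does not inhibit proteases, rose by 0.35 and 0.72 (adjusted p = 0.0097 and 2.8e-05), and SERPINB6 rose by 0.31 and 0.73 (adjusted p = 0.020 and 2.7e-05). At 3 days the call of SERPINH1 was lost without the trend and without 3-day replicate 2 (adjusted p = 0.069 and 0.10), and that of SERPINB6 without the trend, SB replicate 1 or 3-day replicate 1 (0.055 to 0.17). SPINT1, an inhibitor of matriptase, rose by 0.53 at 7 days (adjusted p = 0.035). SPINT1 was no longer called without SB replicate 1 (0.15), without either 7-day replicate (0.50 and 0.56), without a filter, without the trend and with equal library totals. APLP2, which carries a Kunitz domain, fell by 0.46 at 3 days (adjusted p = 0.0048) and rose by 0.71 from 3 to 7 days (adjusted p = 4.4e-04), and its 3-day call was lost without a filter and without the trend (0.058 and 0.060).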

How the data were processed

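PolyA RNA of 6 libraries in 3 groups was measured. The authors mapped read pairs to hg19, assigned reads to genes with HTSeq 0.6.1p1 and scaled each library by its size. The deposited values are these normalized counts rounded to whole numbers, treated here as a score and not as raw counts, so no count test was run. Library depth limits the precision of low genes, and intervals and p-values cover the spread between libraries only.

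Values were taken as log2(value + 1). A mean of 10 or more over the libraries was required, which 14395 genes met, and limma 3.58.1 (R 4.3.3) fitted them by empirical Bayes with a trend and the group as the only term, and p-values were adjusted by Benjamini-Hochberg at 0.05 for each comparison. An exact permutation test of 2 against 2 libraries cannot give a two-sided p below 0.333. The members and lists were chosen with earlier results of these data known. Besides all 9 members, genes of each pathway list were named when called with a mean of at least 100, up to the 6 largest differences, with F2R, F2RL1 and PLG named regardless (1 gene that the rule names is not reported here). Genes alike in course were the 3 nearest for each of the 3 members with the largest differences. Lengths came from GENCODE on GRCh37 (1 transcript a gene), start sites from RefSeq. The steps were tested on simulated data. Alternatives were a pseudocount of 0.5 or 5, no filter, a mean of at least 50, 3 other scalings, no trend, the 4 libraries compared alone, a replicate block and each library left out.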

Additional observations from a re-analysis of the deposited data

Results flagged for a closer look

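The difference from SB (here called the effect) at 7 days minus that at 3 days is given for 5 of the 9 genes and 16 of the other genes named. With no SB library at 7 days, the 7-day effect also holds the difference in culture time. Since the SB libraries are shared, each value is also the 7-day minus 3-day log2 difference, and it holds the difference in culture time too. For the 5 genes the values are a description without a test, since these libraries chose them. F3 had -2.25, with effects of opposite sign at the 2 times (0.99 and -1.26). SERPINA5 had 3.45, SERPINE2 0.50, PLAU 0.41 and PLAT 0.37, the last a smaller decrease at 7 days.

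The other 16 passed the limma test of the difference (Benjamini-Hochberg adjusted p under 0.05). VLDLR had effects of opposite sign, with a difference of 1.02, but its 3-day call was lost in 4 alternative fits (adjusted p = 0.052 to 0.18) and its 7-day call in 2 (0.061 and 0.11). LRP1 had 1.49, MRC2 1.36, SERPINA1 1.06, SPINT1 0.79, APLP2 0.71, ST14 0.67, ANO6 0.54, F2R 0.51, F8 0.49, PROS1 0.44, SERPINB6 0.42 and SERPINH1 0.37, all higher at 7 days. PLGRKT had -0.67, PROCR -0.43 and ANXA5 -0.42, all lower at 7 days. Over all genes 33.2% passed the same test. These 16 genes were named for calls and large differences in any comparison, this one included, so their share cannot be set against it. At least 1 alternative fit lost the call between the times for ANXA5 and ST14 (5 fits each), F8 (4), F2R and SERPINH1 (3 each), MRC2, SPINT1 and PROCR (2 each) and PROS1 (1).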

How the results depend on the processing

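Precision rests on 2 libraries a group and 1 deposited scaling. TGFβ time and culture time cannot be told apart at 7 days against SB or between 3 and 7 days. The 9 genes kept 8 calls in both comparisons with SB whichever library was left out, beside 2608 to 3894 of all genes called at 3 days and 5893 to 7682 at 7 days. Between 3 and 7 days 3 to 6 of them were called in those fits and 2 without the trend on mean expression (F3 and SERPINA5). TFPI changed sign at 3 days (-0.23 to 0.032 over these fits, the last without SB replicate 1), at 7 days (-0.15 to 0.11, above 0 without SB replicate 1 and at 0.038 without 7-day replicate 1) and between the times (-0.0042 without 3-day replicate 2 to 0.16), and PLAUR between the times (-0.18 to 0.036, the last without 7-day replicate 2). All other signs of the 9 genes were kept. F3 lost its 3-day call without a filter on low values (0.99).

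Of the other genes named, ST14 (-0.069 without SB replicate 1 to 0.57), PROS1 (-0.022 with equal library totals, and -0.014 without 3-day replicate 1 to 0.082) and SPINT1 (-0.64 to 0.11, the last without SB replicate 2) changed sign at 3 days, and ANXA5 at 7 days (-0.18 to 0.17, above 0 without SB replicate 1 and at 0.016 without 7-day replicate 1). Without the trend, the receptors had 1 call and the further inhibitors 3 at 3 days. Between the times 4 genes of the plasminogen list, 4 of the coagulation list, 4 of the further inhibitors and 3122 of all genes were called without it. Without a filter these were 4 for plasminogen, 3 for coagulation and 3042 for all genes. With a mean of at least 50, 1 receptor was called at 7 days. With 1 library left out, 2294 to 5570 genes were called between the times. Between the times the lists then had 5 to 10 (plasminogen), 2 to 8 (coagulation), 0 to 1 (receptors) and 5 to 11 (further inhibitors) calls. The cause of these shifts was not tested.

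With the replicate number as a block, 8, 8 and 5 of the 9 genes and 3943, 7546 and 4485 of all genes were called. Deviations of same-numbered libraries correlated across genes at 0.21 (SB with 3 days), -0.13 (SB with 7 days) and -0.65 (3 with 7 days). The last value is a structure between libraries whose cause was not tested. The block gives a replicate number the same shift in every group, so it cannot model a negative correlation. No call of the 9 genes changed under the block.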
